A study of Mus musculus with 6 samples.

Results

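Cells build cholesterol from acetyl-CoA through mevalonate, farnesyl diphosphate and squalene to lanosterol and on to cholesterol, and they build fatty acids from the same acetyl-CoA through malonyl-CoA. Both routes are switched on by the SREBP transcription factors, which SCAP carries from the endoplasmic reticulum to the Golgi for activation and which the INSIG proteins hold back when sterols are plentiful. Cholesterol is also needed in the embryo for Hedgehog signalling, and mouse or human mutations in several of the sterol enzymes cause cataract or developmental defects. The 30 genes described here are 18 enzymes of sterol synthesis, 6 genes of SREBP control and sterol transport, and 6 enzymes of fatty acid synthesis, chosen by gene symbol. They were measured in the prospective lens of 3 wild type and 3 Pax6-/- mouse embryos at embryonic day 9.5, a comparison that addresses gene expression downstream of Pax6, a transcription factor that the lens needs to form.

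Each array held cDNA amplified from 15 ng of RNA of 1 embryo, with tissue of both eyes pooled, cut by laser from frozen sections. All embryos had a mixed FVB and 129 background, the wild type tissue is labelled lens placode and the knockout tissue surface ectoderm, and the labels give neither the Pax6 allele nor the sex. Of the 30 members, 29 had a probe with their symbol on the array (Acat2, the cytosolic thiolase that starts the mevalonate route, had none) and 26 were tested, of 9618 named genes and 14686 genes and unnamed probes in all. The other 3 with probes, Mvk and Mvd of the mevalonate route and the squalene synthase Fdft1, were not tested because no probe of theirs was detected (detection p under 0.05) on at least 3 arrays. Of the 26, 23 were detected on all 6 arrays and 3 on 5, and none passed through 1 genotype alone. Levels are normalized log2 intensities, a change is the knockout mean minus the wild type mean, given with its standard error (SE), and adjusted p-values are from limma with Benjamini-Hochberg adjustment over all 14686. Levels of different probes are not comparable with each other.

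The arrays resembled each other, with Pearson correlations across genes of 0.904 to 0.949 and between 38.8% and 41.6% of probes detected, but knockout 1 had the lowest median signal (41.7 against 47.3 to 49.8) and stood apart on the first principal component. The brightest Pax6 probe read 10.39, 10.03 and 9.74 in wild type and 8.97, 9.37 and 9.59 in knockout, a change of -0.74 (SE 0.21, limma adjusted p = 0.428) that did not pass. The deleted part of the gene is not given, so a probe outside it would check nothing. Xist, the RNA of the inactive X chromosome, was detected in all 3 wild type and none of the knockout embryos. The Y-linked Kdm5d was detected in all 3 knockout and none of the wild type embryos. Of other Y-linked genes, Uty was also detected in 1 wild type embryo and the brightest Eif2s3y probe in 2. On both, all knockout values lay above all wild type values. Genotype and sex therefore cannot be told apart in any comparison here.

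Parts of the promoters are shown for 4 members, all with a lower mean in knockout, whose differences run from small to the largest measured. They are Hmgcs1, an early enzyme that differed little, Msmo1 and Insig1, which differed more, and Elovl6, which differed most of the 26. The windows were set by hand and differ in length, so they do not compare the whole promoters. Sequences are from RefSeq (GRCm38.p6), 5′ to 3′ on the strand of the gene, and capitals mark the letters of an SREBP recognition sequence (TCACNCCAC), an E box (CACGTG) or an NF-Y box (CCAAT), each searched on both strands. The windows lie at chr13:119690156-119690320 (plus strand) for Hmgcs1, chr8:64733614-64733753 (minus strand) for Msmo1, chr5:28071292-28071351 (plus strand) for Insig1 and chr3:129532266-129532385 (plus strand) for Elovl6.
Hmgcs1: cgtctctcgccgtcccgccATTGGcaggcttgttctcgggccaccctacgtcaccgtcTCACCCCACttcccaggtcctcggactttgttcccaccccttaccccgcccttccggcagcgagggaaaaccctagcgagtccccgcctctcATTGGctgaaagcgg
Msmo1: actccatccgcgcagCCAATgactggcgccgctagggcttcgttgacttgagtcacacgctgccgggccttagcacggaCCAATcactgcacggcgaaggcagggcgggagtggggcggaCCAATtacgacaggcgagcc
Insig1: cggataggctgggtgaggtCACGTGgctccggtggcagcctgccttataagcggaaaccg
Elovl6: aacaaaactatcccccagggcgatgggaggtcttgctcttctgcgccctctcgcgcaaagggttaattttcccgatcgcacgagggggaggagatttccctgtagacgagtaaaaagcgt

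NF-Y is a trimeric factor that often binds beside SREBP at sterol gene promoters. Over the whole promoter entries, which run from 250 bases before to 50 after the start, 18 of the 21 tested members with an entry held an NF-Y box (85.7%), against 43.3% of the 7842 tested genes with an entry. In all, 24 of the 30 members had an entry, with Fdps, Fdft1, Sqle, Stard4, Scd1 and Scd2 as the members without. Msmo1 held 3 NF-Y boxes, at 160, 96 and 55 bases before the start. The NF-Y box of Insig1 lies 216 bases before the start, outside the window shown. Elovl6, Acaca and Scap were the 3 tested members without the box. The E box stood in 5 of the 21 (23.8%, against 12.0% of tested genes) and the SREBP sequence in Hmgcs1 alone (4.76%, against 1.49%), where it lies 137 bases before the start between NF-Y boxes. The genes were picked as a pathway, so these shares describe it and were not tested. A match of letters is not a site of binding.

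In the Pax6 knockout embryos, 24 of the 26 tested members had a lower mean than in wild type, with a median change of -0.32, and no member passed the test. Over everything tested 49.6% had a lower mean and the median change was 0.0022, and over the named genes alone 52.0% and -0.014. In 8 members (30.8%) all 3 knockout values lay below all 3 wild type values, as in 6.48% of everything tested, and in 0 members all 3 lay above, as in 5.66%. At an unadjusted p under 0.05, 5 members were lower (3.96% of everything tested) and 0 higher (3.49%), and over everything tested 0.157% passed the adjusted threshold, 0.102% as lower in knockout. Of the 9618 named genes, 702 had all knockout values below all wild type values and 507 had them above. At the same unadjusted threshold 440 named genes were lower and 307 higher. The members were chosen with earlier results of these data known, so neither their count nor their median has a test of its own.

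**Figure D1:**
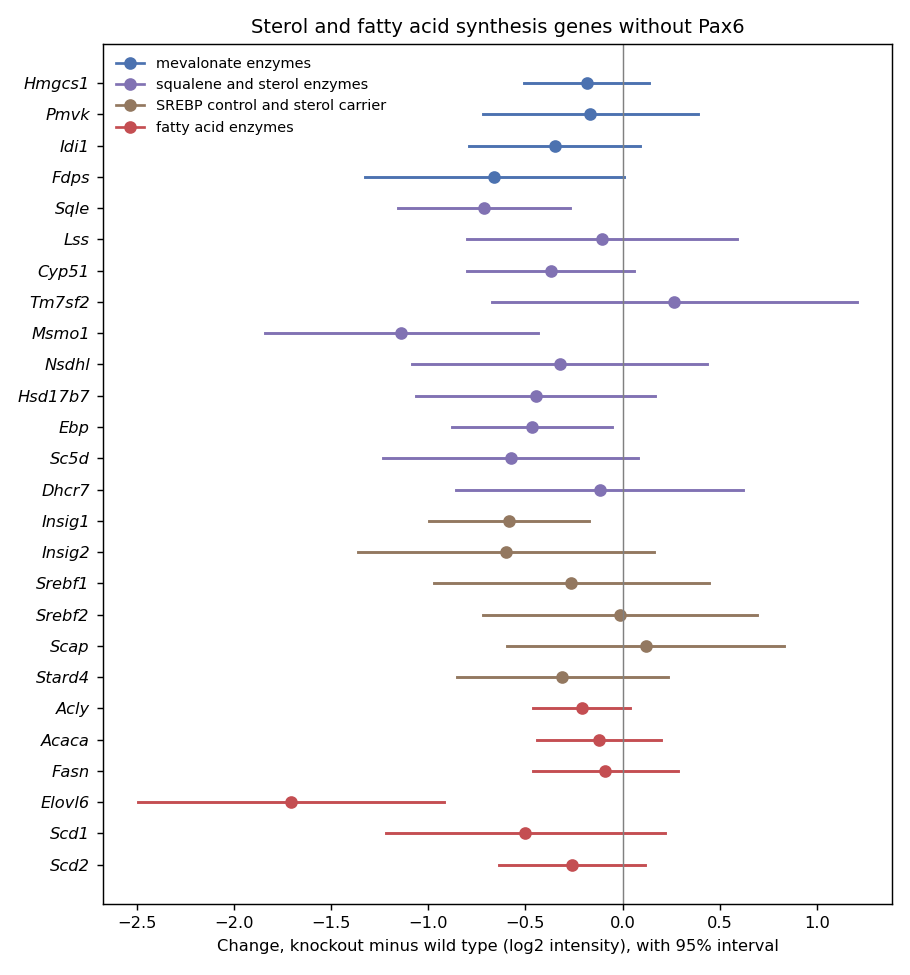
Change of each tested member, knockout minus wild type, on the log2 intensity scale (x axis), in pathway order and coloured by role. Points are the fitted changes of 3 against 3 embryos and lines their 95% intervals before any adjustment over genes. All but Tm7sf2 and Scap lie below 0, and the intervals of Elovl6, Msmo1, Sqle, Insig1 and Ebp end below 0.

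The mevalonate enzymes were 0.17 to 0.66 lower in knockout by their means, with overlapping groups in each of the 4 tested. Hmgcs1, which makes HMG-CoA, differed by -0.18 (SE 0.14, 95% interval -0.51 to 0.14). Pmvk, a kinase of mevalonate phosphate, differed by -0.17 (SE 0.24) and Idi1, the isopentenyl diphosphate isomerase, by -0.35 (SE 0.19). Fdps, which makes farnesyl diphosphate for both sterols and protein prenylation, read 8.67, 8.93 and 8.47 in wild type and 8.69, 7.64 and 7.75 in knockout. Knockout 1 thus lay within the wild type range and the other knockout embryos below it, and the change of -0.66 (SE 0.29, limma adjusted p = 0.674) was -0.99 without knockout 1, -0.47 without knockout 2 and -0.42 with the mean of its probes. The second Fdps probe differed by -0.19 (SE 0.57).

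Msmo1, Nsdhl and Hsd17b7 together remove methyl groups from products of lanosterol. Msmo1, the methyl sterol monooxygenase that opens this step, had the largest difference of the 14 tested sterol enzymes. It read 8.24, 7.67 and 7.38 in wild type and 6.41, 6.86 and 6.59 in knockout. The groups did not overlap, and the mean was 2.20-fold lower in knockout (log2 change -1.14, SE 0.31, limma adjusted p = 0.396). The array carried 1 Msmo1 probe, named Msmo1 there too, and before normalization its signal was 347, 248 and 211 in wild type and 97.7, 146 and 127 in knockout. Bead standard errors were 4.13 to 13.8. The wild type embryos thus also differed among themselves by more than these bead errors. Hsd17b7, the keto reductase, differed by -0.45 (SE 0.27) and its groups overlapped.

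Sqle, the squalene epoxidase that first brings oxygen into the sterol skeleton, was 1.64-fold lower by its brightest probe, but its probes disagreed. That probe read 9.41, 9.47 and 9.15 in wild type and 8.56, 8.36 and 8.98 in knockout (log2 change -0.71, SE 0.19, limma adjusted p = 0.399), and the groups did not overlap. The second probe read 6.96, 6.66 and 7.08 in wild type and 7.21, 7.33 and 7.17 in knockout, with all knockout values above all wild type values (log2 change 0.33, SE 0.26). The third probe read 5.07, 6.53 and 5.22 in wild type and 5.15, 5.47 and 5.30 in knockout, where wild type 2 was high and the other 5 were close together. Averaged over the 3 probes the change was -0.23. The direction of Sqle therefore depends on the probe.

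The second gene with probes of both signs was Nsdhl, an X-linked sterol dehydrogenase. Its brightest probe read 8.56, 8.46 and 7.30 in wild type and 7.83, 7.81 and 7.71 in knockout, so the knockout embryos lay inside the wild type range (change -0.32, SE 0.33). Its second probe read 6.54, 7.54 and 5.93 in wild type and 7.20, 7.21 and 7.32 in knockout (0.57, SE 0.41) and the remaining probe differed by 0.097 (SE 0.33). On every probe of Nsdhl the wild type embryos spanned the wider range.

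Ebp, the X-linked sterol isomerase, read 5.71, 5.35 and 5.62 in wild type and 4.87, 5.23 and 5.17 in knockout, close to the detection limit. Its detection p was under 0.05 in 3 wild type embryos but 2 of the knockouts. The change of Ebp was -0.47 (SE 0.18, limma adjusted p = 0.617). Over the alternatives it ranged from -0.90 with the authors' second set of deposited intensities to -0.25 with a larger background offset. Sc5d, the desaturase that follows, differed by -0.58 (SE 0.29), with 6.29, 5.72 and 6.45 in wild type and 5.45, 5.65 and 5.64 in knockout. The groups of Ebp and Sc5d did not overlap, and Sc5d came within 0.072 log2 of overlapping at wild type 2 and knockout 2. Cyp51, the lanosterol demethylase, differed by -0.37 (SE 0.19) and by -0.45 on its second probe (SE 0.52).

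For the last 3 sterol enzymes the data set only wide bounds. Lss, which closes squalene oxide into lanosterol, differed by -0.11 (SE 0.30, 95% interval -0.80 to 0.59) by its brightest probe. Its second probe differed by -0.66 (SE 0.34), with 6.92, 6.74 and 6.06 in wild type and 5.91, 5.80 and 6.03 in knockout, which did not overlap. Dhcr7, the reductase that makes cholesterol, differed by -0.12 (SE 0.32), with knockout 1 at 6.56 above and knockout 2 and 3 at 5.74 and 5.80 below the narrow wild type range of 6.13 to 6.17. Tm7sf2, a sterol reductase, was 0.27 higher (SE 0.41), and high and low embryos were found in both genotypes.

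**Figure D2:**
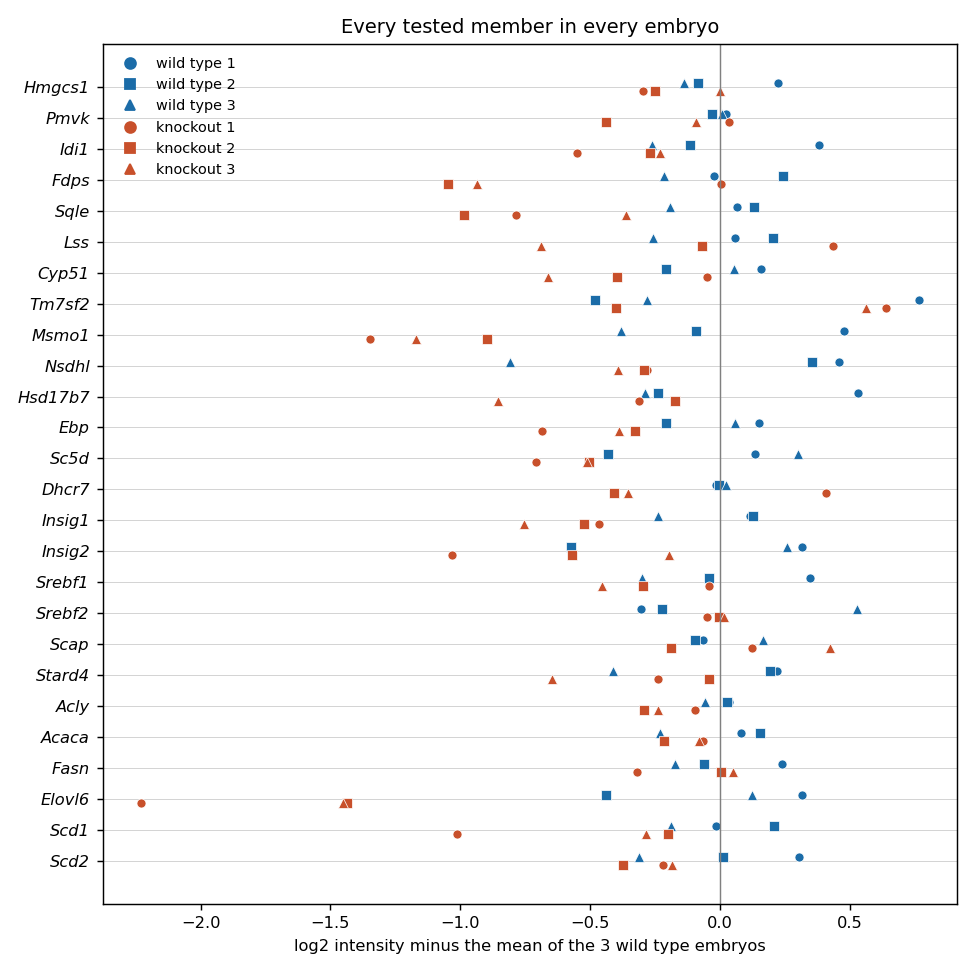
Level of each tested member in each embryo (log2 intensity) minus the mean of the 3 wild type embryos of that gene (x axis). Blue symbols are wild type and orange symbols knockout, and the symbol shape gives the embryo number, which does not pair the genotypes. For Elovl6, Msmo1, Sqle, Insig1, Ebp, Sc5d, Acly and Scd1 all orange symbols lie left of all blue ones.

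Of the SREBP control genes, Insig1, an SREBP target as well as a brake on SREBP, had the smallest p-value, and all 3 of its probes were lower by their means, as were all 3 of Srebf2. The brightest Insig1 probe read 8.88, 8.89 and 8.53 in wild type and 8.30, 8.24 and 8.01 in knockout, without overlap (log2 change -0.58, SE 0.18, limma adjusted p = 0.479). The other Insig1 probes differed by -0.54 (SE 0.42) and -0.86 (SE 0.31), and on the latter the groups did not overlap either. Insig2, the relative that is less tied to SREBP, differed by -0.60 (SE 0.33), with 6.31, 5.42 and 6.25 in wild type and 4.96, 5.42 and 5.79 in knockout. Knockout 2 and 3 did not lie below wild type 2, so the groups overlapped.

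Srebf1, the gene of the factor that leans towards fatty acid synthesis, read 6.60, 6.22 and 5.95 in wild type and 6.21, 5.96 and 5.80 in knockout (change -0.26, SE 0.31, 95% interval -0.97 to 0.44). Srebf2, the gene of the factor that leans towards sterol synthesis, read 6.76, 6.84 and 7.59 in wild type and 7.01, 7.06 and 7.07 in knockout (change -0.014, SE 0.31, 95% interval -0.72 to 0.69). The groups of both overlapped. The other Srebf2 probes differed by -0.24 (SE 0.37) and -0.75 (SE 0.42), so the brightest probe gave the smallest difference. Scap, the escort, read 6.38, 6.35 and 6.61 in wild type and 6.57, 6.26 and 6.87 in knockout (change 0.12, SE 0.31), again with overlap. Stard4, a carrier of cholesterol between membranes, differed by -0.31 (SE 0.24) and by -0.41 on its second probe (SE 0.36). For Srebf1, Srebf2, Scap and Stard4 neither direction was resolved with 3 embryos per genotype.

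**Figure D3:**
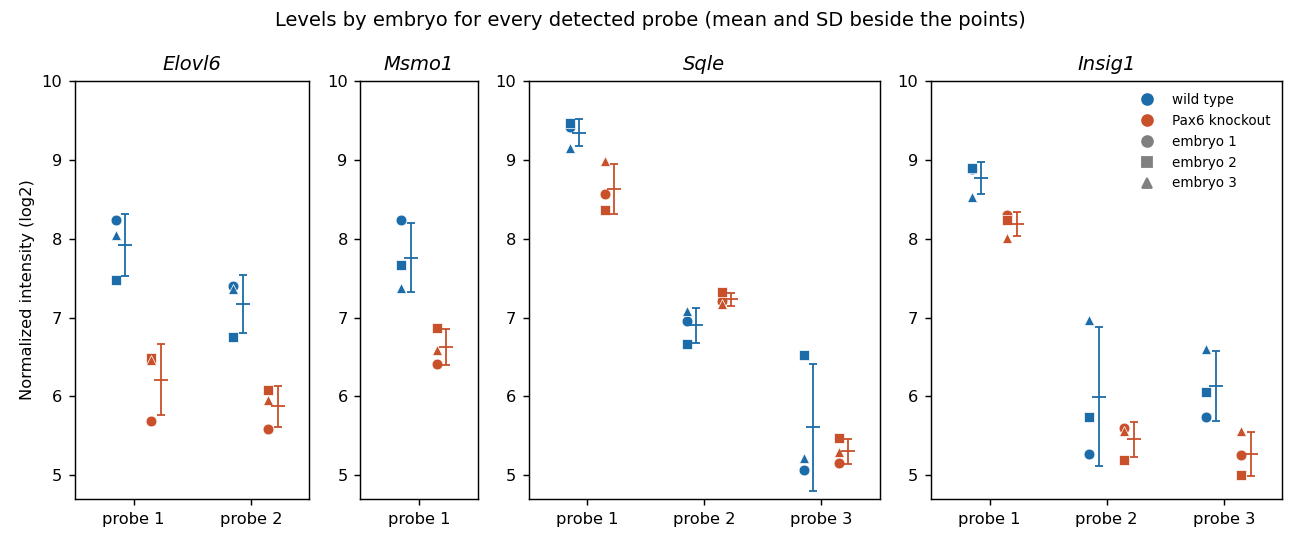
Normalized log2 intensity (y axis) of every detected probe of Elovl6, Msmo1, Sqle and Insig1, brightest probe first, in 3 wild type (blue) and 3 knockout (orange) embryos, with mean and SD beside the points. Both Elovl6 probes and the Msmo1 probe separate the genotypes, and the first and second Sqle probes do so in opposite directions.

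Elovl6, which lengthens palmitate-sized fatty acids towards stearate, had the largest difference of all 26 members. Its brightest probe read 8.23, 7.48 and 8.04 in wild type and 5.69, 6.48 and 6.46 in knockout. The lowest wild type embryo lay 0.996 log2 above the highest knockout embryo, and the mean was 3.26-fold lower in knockout (log2 change -1.71, SE 0.34, 95% interval -2.49 to -0.92). The limma adjusted p was 0.175, rank 80 by p among everything tested, so the difference did not pass. Its second probe gave the same order of genotypes, with 7.40, 6.75 and 7.37 in wild type and 5.58, 6.09 and 5.95 in knockout (log2 change -1.30, SE 0.34). In signal before normalization the brightest probe read 346, 220 and 314 in wild type and 68.4, 119 and 119 in knockout, with bead standard errors of 3.61 to 20.2.

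Knockout 1 was the lowest embryo on both Elovl6 probes, and without it the change was -1.44 (limma adjusted p = 0.308). Over all alternatives the change was -1.93 to -1.34 and the adjusted p 0.0507 to 0.491, lowest with a stricter filter on dim probes. Elovl6 was thus lower in knockout in every setting tried and past the threshold in none.

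The rest of the fatty acid route differed far less by its means. Acly, which makes cytosolic acetyl-CoA from citrate, read 11.15, 11.14 and 11.05 in wild type and 11.02, 10.82 and 10.87 in knockout (change -0.21, SE 0.11), with no overlap but a gap of 0.039 log2. Acaca, the acetyl-CoA carboxylase that commits carbon to fatty acids, differed by -0.12 (SE 0.14) and by -0.032 on its second probe (SE 0.39). Fasn, the synthase that makes palmitate, read 9.94, 9.64 and 9.53 in wild type and 9.38, 9.70 and 9.75 in knockout (change -0.089, SE 0.16, 95% interval -0.46 to 0.28). A change of Fasn as large as that of Elovl6 lies outside this interval, which is not adjusted over genes.

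The stearoyl-CoA desaturases Scd1 and Scd2, which place the double bond after elongation, were lower by their means but did not pass. Scd1 read 7.31, 7.53 and 7.14 in wild type and 6.31, 7.12 and 7.04 in knockout (change -0.50, SE 0.31), where knockout 1 was the low embryo and the change without it was -0.24. The Scd1 groups lay apart by 0.013 log2, the smallest gap of the 8 members whose groups did not overlap. Scd2 read 11.17, 10.88 and 10.56 in wild type and 10.65, 10.50 and 10.68 in knockout (change -0.26, SE 0.16), with overlap. These are close paralogs with 1 probe each. Whether a probe also reads the other gene was not tested.

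The 3 groups had similar medians: -0.36 for the 14 sterol enzymes (13 lower), -0.29 for the 6 SREBP control genes (5 lower) and -0.24 for the 6 fatty acid enzymes (6 lower), or -0.21 for the 5 without Elovl6 (an alternative added later, with the values known). The 12 sterol enzymes not on the X chromosome had a median of -0.36 as well. Counted by probe, 35 of 40 detected probes of members were lower, with 11 apart downwards and 1, of Sqle, apart upwards, against 50.6%, 6.47% and 5.54% of all 19381 probes. Of the 10 members with more than 1 detected probe, 8 had all their probes on the lower side. Probes of a gene share the same 6 embryos and are not replicates.

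**Figure D4:**
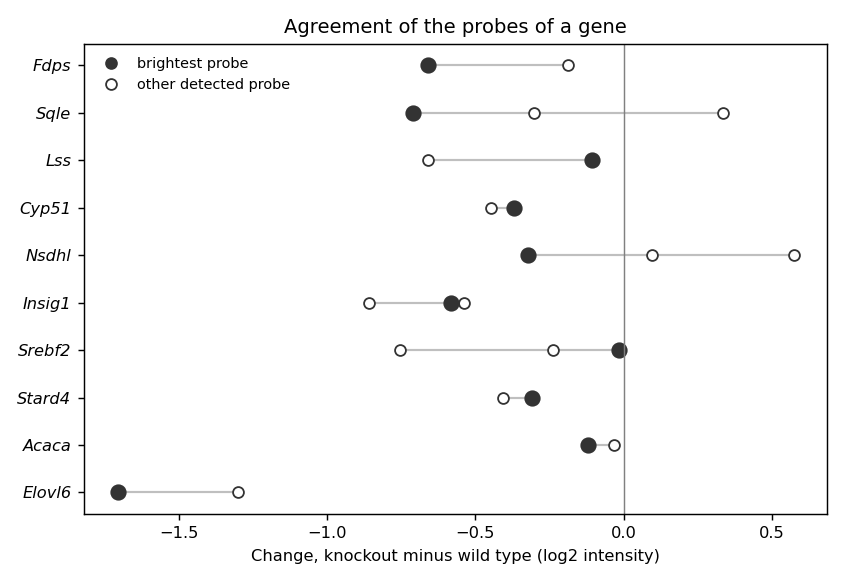
Change of every detected probe of the 10 members with more than 1 such probe, knockout minus wild type in log2 intensity (x axis). Filled points are the brightest probe, which stands for the gene, and open points the others. The probes of Cyp51, Stard4 and Acaca lie within 0.097 of each other, those of Elovl6 and Insig1 within 0.40 and 0.32. Those of Sqle and Nsdhl lie on both sides of 0.

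The size of the group difference leaned on wild type 1. That embryo was the highest of the 6 for 15 of 26 members, compared with 17.9% of everything tested, and the median sterol enzyme read 0.40 above its 6-embryo mean there, but 0.054 and 0.086 above in wild type 2 and 3. The knockout embryos read -0.11, -0.21 and -0.23. Without wild type 1 the median change was -0.17 for the sterol enzymes, still with 13 of 14 lower, -0.18 for the SREBP control genes and -0.15 for the fatty acid enzymes (5 of 6 lower). The control genes also moved to -0.16 without knockout 3 and to -0.44 without wild type 3. Over all genes the corresponding medians of the embryos stayed between -0.027 and 0.0097.

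**Figure D5:**
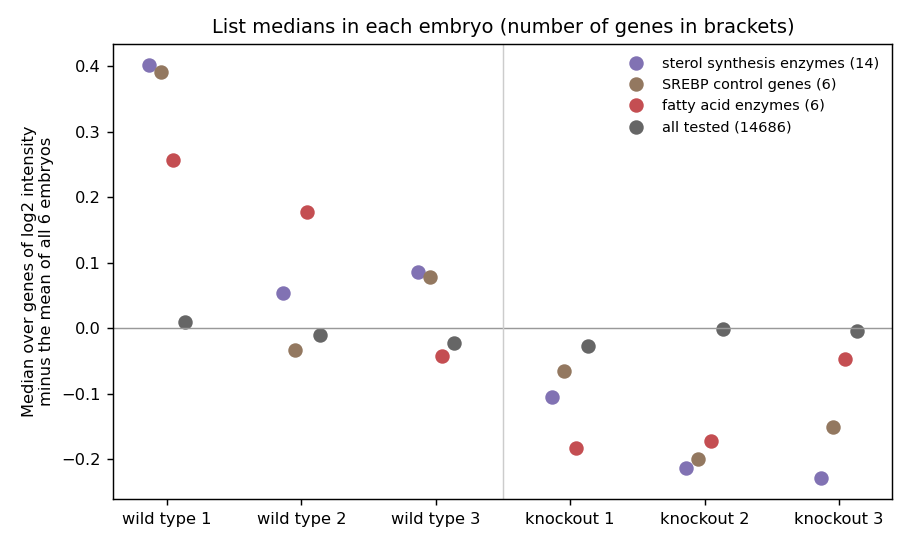
Median over the genes of a list of each gene's log2 intensity minus its mean over all 6 embryos (y axis), for each embryo (x axis). The sterol enzymes and the SREBP control genes sit near 0.4 in wild type 1 and all 3 lists sit below 0 in the 3 knockout embryos, as do the SREBP control genes in wild type 2 (-0.034) and the fatty acid enzymes in wild type 3 (-0.042), while the median over everything tested stays near 0.

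The median of the tissue's own markers was lower in knockout too. Of 10 tested markers of lens placode and surface ectoderm, 8 were lower in knockout (median -0.67). The list holds Pax6 itself (-0.74, SE 0.21), so its median is not a measure of tissue makeup alone. The mean level of the markers was 9.07 to 9.36 in wild type and 8.24 to 8.34 in knockout. Their median deviation by embryo was 0.43, 0.27 and 0.12 in wild type and -0.25, -0.35 and -0.17 in knockout, so wild type 1 was the highest here as well. The lens factors Maf (-3.86, SE 0.31, limma adjusted p = 0.00477) and Prox1 (-2.22, SE 0.28, limma adjusted p = 0.0337) fell, and Foxe3 was not tested. The other tested markers, named after their values were seen, all differed less than Maf and Prox1. Sox2 differed by -0.86 (SE 0.32), Six3 by -0.80 (SE 0.38), Tfap2a by -0.59 (SE 0.16) and Epcam by -0.38 (SE 0.14). For Tfap2a and Epcam the groups did not overlap. Cdh1 differed by -0.18 (SE 0.27), Krt8 by 0.14 (SE 0.16) and Krt18 by 0.15 (SE 0.14), with overlap. In tissue of this kind fewer cells of a type and less RNA per cell cannot be told apart, and the part of cell makeup in the lower sterol and Elovl6 levels was not tested.

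Each neighbouring tissue had a marker detected on all arrays (Fgf15, Prrx1, Kdr and Hbb-bh1, for example), but not all its listed markers were. Cd34 of the endothelium was detected in 2 wild type and 2 knockout embryos. Optic vesicle markers had a mean level of 7.02 to 7.26 in wild type and 7.24 to 7.49 in knockout (4 of 5 tested markers higher). Head mesenchyme markers ranged from 6.93 to 7.08 and 6.70 to 7.33 (4 of 6 higher; Foxc1, Foxd3 and Sox10 not tested), and endothelial markers from 5.82 to 6.45 and 5.77 to 6.62 (3 of 3 higher; Pecam1, Cdh5 and Tek not tested). Red cell markers ranged from 6.03 to 7.71 in wild type and 7.16 to 9.005 in knockout (3 of 4 tested markers higher). The part of these tissues in the results was not tested.

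No related gene outside the 30 passed. Among other sterol genes 3 of 4 tested were lower, with a median of -0.28 that is close to that of the SREBP control genes. Erg28, known in yeast as a scaffold of the sterol demethylation enzymes, read 8.88, 9.12 and 8.99 in wild type and 8.38, 8.69 and 8.11 in knockout, without overlap (change -0.60, SE 0.19, limma adjusted p = 0.479). Cyb5b, a cytochrome b5, differed by -0.53 (SE 0.23), and Ggps1, which makes geranylgeranyl diphosphate, was 0.46 higher (SE 0.26), with all knockout values above the wild type values. Other probes differed from these: the second Erg28 probe by -0.10 (SE 0.28) with overlap, and the other Ggps1 probes by 0.24 (SE 0.14) and -0.076 (SE 0.16).

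The genes that process SREBP or bind beside it lay near 0, with 6 of 10 lower and a median of -0.044. Faf2 (0.39, SE 0.32), Erlin1 (-0.19, SE 0.19) and Sp1 (0.18, SE 0.20, but -0.37 on its second probe) had the smallest p-values of that list. For uptake, trafficking and efflux of sterols 6 of 10 were lower (median -0.085). Lipa, the lysosomal lipase, was 0.43 higher (SE 0.17) and the efflux pump Abca1 0.59 higher (SE 0.32), each with detection in 1 wild type embryo and 2 knockouts, and the lipoprotein receptor Scarb1 differed by -0.73 (SE 0.43) by its brightest probe but 0.035 and -0.016 by the others, with knockout 3 on the brightest at 5.38 and the other 5 embryos at 6.63 to 7.14. Among other fatty acid genes 11 of 14 were lower (median -0.12). The smallest p-value was that of Acacb, the mitochondrial acetyl-CoA carboxylase (-0.44, SE 0.17, detected in 3 wild type embryos and 1 knockout). Next came the X-linked Mid1ip1, which activates acetyl-CoA carboxylase (-0.60, SE 0.29), and Hsd17b12, the keto reductase of fatty acid elongation (-0.84, SE 0.44). The second Hsd17b12 probe went the other way (0.59, SE 0.45), so its direction depends on the probe. By the brightest probe Hsd17b12 read 7.52 in wild type 1 and 5.54 to 6.55 on the other 5 arrays.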

How the data were processed

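The authors' deposited table gives linear intensity (mean bead brightness) for 46632 probes (GenomeStudio, version not given, per the submitters' processing notes), with a detection p-value, a count of beads and a bead standard error (signal scale) per probe. Judged from their values, the deposited intensities were neither background-subtracted nor normalized between arrays. A second deposited table holds intensity with values below 0 and near-equal medians, by a method not stated, and served as an alternative. For that alternative, values under 16 were set to 16 before log2. Background was removed by normexp, fitted through the detection p-values (offset 16), before quantile normalization and log2 (neqc, limma 3.58.1, R 4.3.3). A probe was kept if 3 or more arrays had a detection p below 0.05, which left 19381, and the brightest stood for a gene. Symbols are those of the platform annotation at GEO (29976 probes with 1 symbol, 10 with several, 16646 unnamed here), updated through the RefSeq gene table. The genotypes were compared by lmFit and eBayes, with a variance trend. Values of other probes of a gene come from the same fit with every kept probe tested. The fit was tested on simulated data. The 6 arrays lie on 1 BeadChip by their labels. Replicates are embryos, and their number limits the precision. Members with an unadjusted p under 0.05, members whose probes disagree in sign and 6 fixed genes are given by embryo, others were added after their values were seen. Up to 3 genes by smallest p are named from each related list. The members and lists were chosen with earlier results of these data known. Alternatives changed the filter, background, normalization, variance model, weights, probe choice, block and arrays used.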

Additional observations from a re-analysis of the deposited data

How the results depend on the processing

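No tested member passed the adjusted threshold under any of the alternatives, and 20 of 26 kept one direction in all of theirs. The number of genes past 5%, 23 with the settings used, was 6 with no filter on dim probes, 69 with the stricter filter and 1 to 6 without 1 array. Same-numbered embryos did not deviate together (correlations -0.047, -0.024 and -0.036), so the number pairs nothing, and with the replicate number as a block the count was 1. Median scaling moved the median of all tested by -0.15. It gave list medians of -0.55 for sterol enzymes, -0.48 for SREBP control genes and -0.45 for fatty acid enzymes, or -0.41, -0.33 and -0.30 relative to all tested, and split the calls into 4 higher and 15 lower, against 8 and 15. Leaving out 1 array gave medians of -0.44 to -0.17 for sterol enzymes, -0.44 to -0.16 for SREBP control genes and -0.33 to -0.15 for fatty acid enzymes. Directions turned for Nsdhl with the mean of probes (0.12), Srebf2 with array weights (0.060) and Scap with median scaling (-0.063). Without 1 array the change ranged from -0.38 to 0.18 for Lss, -0.38 to 0.027 for Dhcr7, -0.17 to 0.25 for Srebf2, -0.032 to 0.27 for Scap and -0.18 to 0.029 for Fasn, each crossing 0; the cause was not tested. A shorter SREBP motif (CACNCCAC) stood in 3 of 24 member promoters in place of 1, by its construction (12.5%, against 7.12% of all genes). Among the tested members with an entry it stood in 2 of 21 (9.52%), against 7.82% of tested genes.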
